A study of Mus musculus with 8 samples.

Results

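Cartilage owes its stiffness to a hydrated matrix in which type II collagen fibrils hold large sulfated proteoglycans. Col2a1 encodes the fibril chain, Acan the proteoglycan core protein aggrecan, Hapln1 the link protein that fixes aggrecan to hyaluronan, and Comp a pentameric glycoprotein that binds collagen. The transcription factor SOX9 switches these genes on, and SOX5 and SOX6 act with it as partners that bind beside it. Loss of the sulfate transporter SLC26A2 in people causes chondrodysplasias, disorders in which undersulfated cartilage proteoglycans disturb skeletal growth. The 7 genes named here, 4 of the matrix and the SOX trio, were chosen by their symbols and not by their values. Earlier results of these data were known at the time. All 7 were found among the 14457 genes of the table.

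The values are bulk RNA sequencing of femoral bone shafts from mice at postnatal day 7. The 4 control libraries carried Col2.3kb-Cre with Slc26a2 fl/+ and the 4 CKO libraries Col2.3kb-Cre with Slc26a2 fl/fl, so that the driver was shared and each control mouse also had 1 floxed allele. The study set out to find the molecular changes behind disturbed osteoblast maturation. The Col2.3kb promoter fragment comes from a type I collagen gene and is active in osteoblasts, so the deletion was not aimed at chondrocytes, the cells of cartilage. The labels number the libraries but do not say that each came from its own mouse, and the p-values below reflect no more than the spread among these samples.

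Levels are FPKM, fragments scaled to transcript length and to the mapped fragments of the library, as computed by the authors, and fold changes are on the scale of log2(FPKM + 1). Sequencing depth is unknown, and on that scale the change of a low gene comes out too small. FPKM summed to between 352283 and 379669 in control and between 431612 and 598419 in CKO, so the sums did not overlap. The number of genes listed at 0 was 155 in CKO replicate 4 and 5 to 31 elsewhere. Mitochondrial genes took 2.92% of the FPKM in CKO replicate 4 and 9.13% to 14.8% in the others, and hemoglobin genes 12.3% against 0.997% to 6.25%. Whether this library is of lower quality was not tested. Y-linked genes were listed at 0 in CKO replicates 1 to 3 and in control replicate 1, and were present in the other 4 libraries, at a lower level in CKO replicate 4 than in the controls. The labelled tissue held the markers of bone, with Col1a1 between 1895 and 18919 FPKM. Slc26a2 was lower in every CKO library than in any control library, at 1.64 ± 1.06 FPKM against 5.39 ± 1.42 FPKM (SD, n = 4 per group). A two-sided exact permutation test over the 70 assignments gave its lowest possible p, 0.0286. Its limma adjusted p was 0.0412. When 1 library was left out it lay between 0.0341 and 0.165 and stayed under 0.05 only without control replicate 1 or CKO replicate 4. Of 20 alternative settings, described below, 13 put it above 0.05. Among these were median-of-ratios scaling (0.0638), equal FPKM totals (0.0637), and the Y-linked and marrow covariates (0.219 and 0.278). The log2 fold change of Slc26a2 stayed below 0 in all 20, from -1.93 to -0.80.

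The SOX trio shares a DNA-binding domain, the HMG box. The lines below show how far their transcripts can be told apart by sequence. They give the stretch of 60 bases of the Sox9 reading frame that was best matched in both Sox5 and Sox6, with those matches. They were read from GENCODE M21 transcripts of the GRCm38 build, 5′ to 3′, and capitals mark the 18 positions at which the 3 are not all the same.
Sox9: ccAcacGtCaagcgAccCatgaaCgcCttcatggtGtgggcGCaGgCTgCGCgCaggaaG
Sox5: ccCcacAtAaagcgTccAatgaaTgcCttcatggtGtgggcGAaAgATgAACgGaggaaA
Sox6: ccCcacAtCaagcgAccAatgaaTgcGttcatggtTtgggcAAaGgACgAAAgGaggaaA
Sox5 and Sox6 had the same base at 52 of the 60 positions, Sox9 and Sox5 at 47, and Sox9 and Sox6 at 45. The longest run of identical bases anywhere in the reading frames was 18 for Sox5 and Sox9, 17 for Sox5 and Sox6 and 12 for Sox6 and Sox9. The stretch began at base 307 of the reading frame in Sox9, at 1660 in Sox5 and at 1855 in Sox6.

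Among the 7 genes, Col2a1 stood apart in level. Its mean over the 8 libraries was 42.8 FPKM, and its lowest library, at 11.9 FPKM, lay above every library of the other 6 genes, of which the highest value was 9.02 FPKM for Sox6. Comp averaged 4.64 FPKM, Sox6 4.26, Acan 1.84, Sox9 1.82, Hapln1 0.605 and Sox5 0.104 FPKM. In that order, the ranges over libraries of neighbouring genes overlapped from Comp downwards, so only the step from Col2a1 to Comp exceeded the spread between libraries. Within a library, Col2a1 had between 7.01 and 93.1 times the FPKM of Acan. Both ends of that range were single libraries, control replicate 3 and CKO replicate 4, and the median was 25.8. Col2a1 ranked above 91.3% of the genes of the table on average in control and 86.4% in CKO, Acan above 25.0% and 16.2%, and Sox5 above 0.842% and 0.783%.

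**Figure D1:**
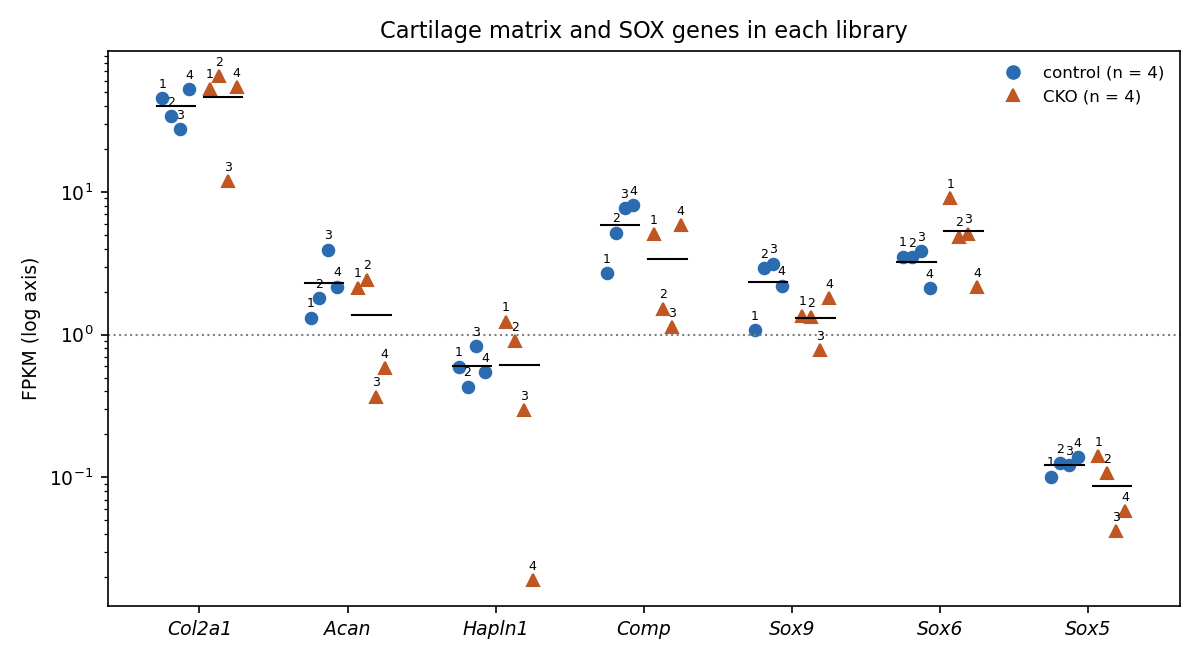
FPKM on a log axis of the 4 cartilage matrix genes and the SOX trio in each library, with circles for control, triangles for CKO, replicate numbers above the points and a bar at each group's mean (n = 4). The dotted line marks 1 FPKM. Values of control and CKO overlap for all 7 genes, and CKO replicate 3 is the lowest library for 5 of them.

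For none of the 7 genes did the genotypes pass the test of a difference. The fit used limma and took in the 12748 genes that reached 1 FPKM in 4 or more libraries. After Benjamini-Hochberg adjustment over these genes, 4.53% passed a threshold of 0.05, 3.88% as higher and 0.651% as lower in CKO. Quantile normalization turned this balance, with 119 genes (0.933%) higher and 202 (1.58%) lower. Of the members, 5 were tested and 0 passed, and 0 of the 5 had an unadjusted p under 0.05, against 25.3% of all tested genes. That last count depended on the libraries and was 3 of the 5 without CKO replicate 4. Hapln1 and Sox5 fell below the filter and were fitted only with no filter. Control and CKO values overlapped for all 7, and among tested genes 18.7% did not overlap. With so few members, neither this nor the count of 0 at an unadjusted p under 0.05 sets them apart. In the authors' deposited table the unadjusted p-value of each member also lay above the threshold, the lowest being 0.0636 for Sox9. A fit that weights each library by its spread called 6005 genes (47.1%, with 32.2% higher and 14.9% lower in CKO) and 3 of the 5 members. In that fit the log2 fold changes were 0.68 for Col2a1, -0.71 for Sox9 and 0.95 for Sox6 (limma adjusted p = 0.0402, 0.00252 and 0.00272). It gave CKO replicate 4 a weight of 0.0896 and CKO replicate 1 a weight of 5.84.

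Col2a1, the type II collagen chain, is at GRCm38 chromosome 15, 97975602 to 98004695, on the minus strand. Its level was 45.4, 33.9, 27.5 and 52.2 FPKM in control replicates 1 to 4 and 52.8, 64.8, 11.9 and 54.1 FPKM in CKO replicates 1 to 4. All CKO libraries but replicate 3 were above every control library. Control averaged 39.8 ± 11.1 FPKM and the CKO libraries 45.9 ± 23.3 FPKM (SD, n = 4 per group). The log2 fold change was 0.0072 with a 95% interval from -1.04 to 1.05 (limma adjusted p = 0.994). Without CKO replicate 3 it was 0.55 (limma adjusted p = 0.256). Leaving out 1 library at a time gave values from -0.23 to 0.55, and the value was also below 0 after quantile normalization and after rescaling to equal FPKM totals.

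Acan, the aggrecan gene, lies on chromosome 7, 79053483 to 79115099, plus strand. In control replicates 1 to 4 it was at 1.31, 1.8, 3.93 and 2.16 FPKM, while CKO replicates 1 to 4 gave 2.13, 2.42, 0.368 and 0.581 FPKM. CKO replicates 1 and 2 were within the range of control and CKO replicates 3 and 4 were below it. The log2 fold change was -0.53 with a 95% interval from -1.30 to 0.24 (limma adjusted p = 0.369). In a fit without CKO replicates 3 and 4, chosen after the values were seen, it was 0.047 (limma adjusted p = 0.930), and without replicate 3 alone -0.30.

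Hapln1, the link protein gene, lies on chromosome 13, 89539796 to 89611652, plus strand. It had 0.598, 0.431, 0.828 and 0.547 FPKM in control replicates 1 to 4 and 1.23, 0.896, 0.295 and 0.019 FPKM in CKO replicates 1 to 4. As for Acan, CKO replicates 3 and 4 were the lowest 2 libraries, while CKO replicates 1 and 2 were the highest. Group means were 0.601 ± 0.167 FPKM and 0.610 ± 0.552 FPKM (SD, n = 4 each), so that the groups differed in spread more than in mean. With no filter the log2 fold change was -0.053, with a limma adjusted p of 0.914.

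Comp, whose product is also a component of tendon, lies on chromosome 8, 70373558 to 70382066, plus strand. In control replicates 1 to 4 it was at 2.69, 5.16, 7.66 and 8.05 FPKM, while CKO replicates 1 to 4 gave 5.07, 1.52, 1.13 and 5.86 FPKM. CKO replicates 1 and 4 lay within the range of control, and CKO replicates 2 and 3 lay below it. The log2 fold change was -0.75 with a 95% interval from -1.70 to 0.21 (limma adjusted p = 0.307). Within the libraries that lack Y-linked expression, the single control had 2.69 FPKM and the 3 CKO libraries averaged 2.57 FPKM. Within those that have it, the 3 controls averaged 6.96 FPKM and the single CKO library had 5.86 FPKM. With the Y-linked level as a covariate the log2 fold change of Comp was 0.020 (limma adjusted p = 0.981).

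Sox9, the regulator of the chondrocyte fate, lies on chromosome 11, 112782224 to 112787760, plus strand. It was at 1.07, 2.93, 3.15 and 2.20 FPKM in control replicates 1 to 4 and at 1.36, 1.32, 0.778 and 1.8 FPKM in CKO replicates 1 to 4. Control replicate 1 lay among the CKO libraries, and the other 3 controls lay above all of them. The means were 2.34 ± 0.940 FPKM and 1.31 ± 0.418 FPKM (SD, n = 4 each), with a log2 fold change of -0.50 and a 95% interval from -1.06 to 0.067 (limma adjusted p = 0.254). Without control replicate 1 the log2 fold change was -0.71 (limma adjusted p = 0.0801). The libraries without Y-linked expression had 1.07 FPKM in control and 1.15 FPKM on average in CKO, and those with it had 2.76 FPKM on average in control and 1.8 FPKM in CKO. With the Y-linked level as a covariate the fold change was 0.0011 on the log2 scale (limma adjusted p = 0.998), and with the marrow level described below it was -0.23 (limma adjusted p = 0.745). Genotype and Y-linked class were unequally mixed, with 3 of 4 controls and 1 of 4 CKO libraries in the class with Y-linked expression, and the part of this class in the difference was not tested beyond this covariate.

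Sox6 lies on chromosome 7, 115470872 to 116038796, minus strand. Besides its role in cartilage, SOX6 is known to act in the maturation of red blood cells and in muscle fibre type. Its level was 3.51, 3.49, 3.83 and 2.12 FPKM in control replicates 1 to 4 and 9.02, 4.85, 5.08 and 2.15 FPKM in CKO replicates 1 to 4. CKO replicates 1 to 3 were above every control library, and CKO replicate 4 was beside the lowest control. The log2 fold change was 0.47 with a 95% interval from -0.25 to 1.19 (limma adjusted p = 0.396), and without CKO replicate 4 it was 0.76 (limma adjusted p = 0.0637). Without CKO replicate 1 it was 0.21 (limma adjusted p = 0.703).

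Genes of marrow cells were compared with Sox6 across the libraries. The mean log2(FPKM + 1) of the neutrophil, B lineage and erythroid lists was 6.38, 6.02, 5.67 and 4.47 in control replicates 1 to 4 and 6.83, 7.03, 6.97 and 6.40 in CKO replicates 1 to 4. Control replicate 4 and CKO replicate 4, each the lowest of its group on this measure, were also the lowest of their groups in Sox6. The other libraries were not in the same order. The marrow level was highest in control replicate 1 and CKO replicate 2, and Sox6 in control replicate 3 and CKO replicate 1. The 11 erythroid genes summed to between 1838 and 6511 FPKM in control and between 10234 and 34965 FPKM in CKO, and none was at 0 in any library. Globin genes made up most of the sum in each library, with Hba-a1 at 26905 FPKM in CKO replicate 4. The mean log2(FPKM + 1) of the list overlapped, from 4.65 to 6.23 in control and from 6.02 to 7.18 in CKO. In CKO replicate 4, which had the highest erythroid sum and the lowest Sox6 of its group, other red cell genes were low, such as Hemgn at 8.0 FPKM against 9.12 to 30.5 FPKM in control. With this marrow level as a covariate, the log2 fold change of Sox6 was -0.048 (limma adjusted p = 0.961). The marrow level did not overlap between the groups, at most 6.38 in control and at least 6.40 in CKO. Such a fit can hardly separate it from genotype, and the standard error of Sox6 rose from 0.326 to 0.449. The log2 fold change of Sox6 was 0.12 with the Y-linked covariate and 0.11 with equal FPKM totals (limma adjusted p = 0.885 and 0.853), thus nearer 0 too. Other fits moved it further from 0. It was 0.88 with the length trend removed and 0.87 without CKO replicates 3 and 4 (limma adjusted p = 0.131 and 0.0932). Which cells carried the Sox6 transcripts was not tested. In bulk RNA, fewer cells of a type and less RNA per cell cannot be told apart.

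Sox5 lies on chromosome 6, 143828425 to 144781977, minus strand, and was barely detected. It ranged from 0.101 to 0.138 FPKM in control and from 0.0422 to 0.141 FPKM in CKO. CKO replicates 3 and 4 were below all controls and CKO replicates 1 and 2 were not. With no filter its log2 fold change was -0.046 with a limma adjusted p of 0.774, a scale on which so low a gene can hardly move. Of the trio, Sox6 was above Sox9 in 7 of the 8 libraries, with a ratio between 0.965 and 6.65, and Sox5 was the lowest in all 8.

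**Figure D2:**
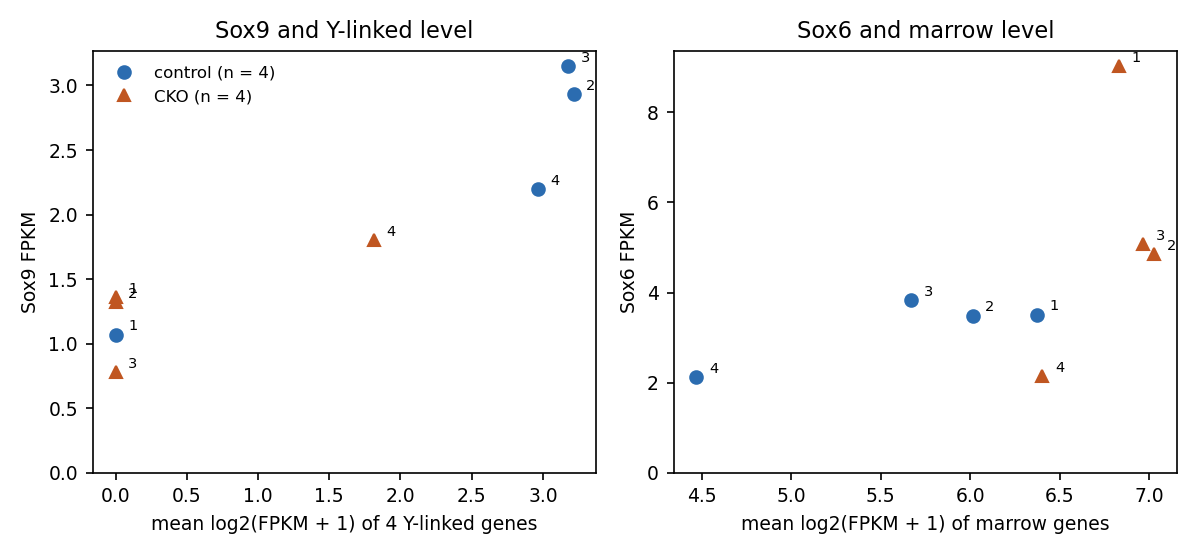
Left, Sox9 FPKM against the mean log2(FPKM + 1) of 4 Y-linked genes, and right, Sox6 FPKM against the mean log2(FPKM + 1) of marrow genes, for the 8 libraries (circles control, triangles CKO, numbers are replicates). Control replicate 1, with Sox9 at 1.07 FPKM, sits with the CKO libraries that lack Y-linked expression, and replicate 4 of each group is lowest of its group in both Sox6 and the marrow level. The highest library of each group is not the same for Sox6 as for the marrow level.

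None of the other cartilage genes that were tested passed the threshold in the unweighted fit without rescaling. The lists below were chosen with earlier results of these data known. Of 7 other collagen genes of cartilage, those of types IX, X, XI and XXVII, 5 were tested, of which 0 passed, all 5 had a log2 fold change below 0, and the median was -0.60 (all tested genes, 0.015). Col11a1, a chain of type XI collagen also made by bone cells, averaged 207 ± 30.3 FPKM among controls and 102 ± 49.8 FPKM among CKO libraries (SD, n = 4 per group), and its CKO libraries all lay below the controls. Its log2 fold change was -1.15 (limma adjusted p = 0.0817). Col11a2 averaged 341 and 231 FPKM (limma adjusted p = 0.297). The type IX chains Col9a1, Col9a2 and Col9a3 were low, with group means between 0.460 and 1.54 FPKM. Col10a1, the network-forming collagen of hypertrophic cartilage, which is also counted in the growth plate list below, averaged 10.4 FPKM in control and 8.15 FPKM in CKO.

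Of 16 other matrix genes of chondrocytes, 6 had a row in the table, 4 were tested and 0 passed, with 4 below 0 and a median of -0.42. Fmod, which encodes the collagen-binding proteoglycan fibromodulin, averaged 40.0 FPKM in control and 26.6 FPKM in CKO. Chad, the gene for the collagen-binding protein chondroadherin, averaged 7.17 ± 3.55 FPKM and 3.24 ± 3.56 FPKM (limma adjusted p = 0.206). The other 10, Matn1, Cnmd, Epyc, Ucma and Snorc among them, were not analysed here. Matn3 was at 0.438 FPKM in control and 0.275 FPKM in CKO. Of 9 genes of the growth plate, 7 were tested and 0 passed, with 7 below 0 and a median of -0.60. Mmp13, a collagenase of hypertrophic chondrocytes and of bone cells, averaged 441 and 290 FPKM, and Pth1r, the receptor for parathyroid hormone and its related peptide, 82.1 and 91.7 FPKM.

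Among regulators of chondrocyte formation, 6 of 14 genes were tested and 0 passed, with 5 below 0 and a median of -0.44. Wwp2, a ubiquitin ligase gene, averaged 27.0 and 28.5 FPKM in control and CKO, and Zfp219, a cofactor of SOX9, 12.8 and 9.91 FPKM. Of 16 SOX genes outside the trio, 7 were tested and 0 passed, with 7 below 0 and a median of -0.69. Sox8 was counted both here and among the regulators. Sox18, a factor of blood vessel and lymphatic endothelium, averaged 54.5 ± 20.1 FPKM among controls and 22.6 ± 7.90 FPKM among CKO libraries (SD, n = 4 per group, limma adjusted p = 0.0782), and Sox4 averaged 29.5 and 23.0 FPKM. Sox18 and Sox4 were thus each higher in FPKM than any gene of the trio. Among all tested genes 48.9% were below 0.

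Relatives of the matrix genes and genes of aggrecan turnover were counted in the same way. Of 12 relatives, 9 were tested and 0 passed, with 9 below 0 and a median of -0.70. Col1a1 averaged 15482 and 5880 FPKM and Col3a1 171 and 111 FPKM. Of 9 turnover genes, 8 were tested and 0 passed, with 8 below 0 and a median of -0.58. Timp3, an inhibitor of aggrecan-cutting proteases, averaged 34.7 and 18.1 FPKM (limma adjusted p = 0.0877), and Cd44, a hyaluronan receptor, 49.8 and 34.1 FPKM. The medians of these 7 lists were below 0 under quantile normalization, median-of-ratios scaling and equal FPKM totals. After quantile normalization 1 of the cartilage collagens and 2 of the turnover genes passed the threshold as lower in CKO, against 1.58% of all tested genes. With library weights, where 14.9% of all tested genes passed as lower, so did 1 of 5 cartilage collagens, 3 of 4 other matrix genes, 2 of 7 growth plate genes, 3 of 6 regulators, 4 of 7 SOX genes, 5 of 9 relatives and 4 of 8 turnover genes, and 0 of these lists' genes passed as higher. With the Y-linked covariate the median of the other matrix genes was 0.355, and with the marrow covariate 0.506. The marrow level did not overlap between the groups, so that fit can hardly separate it from genotype.

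**Figure D3:**
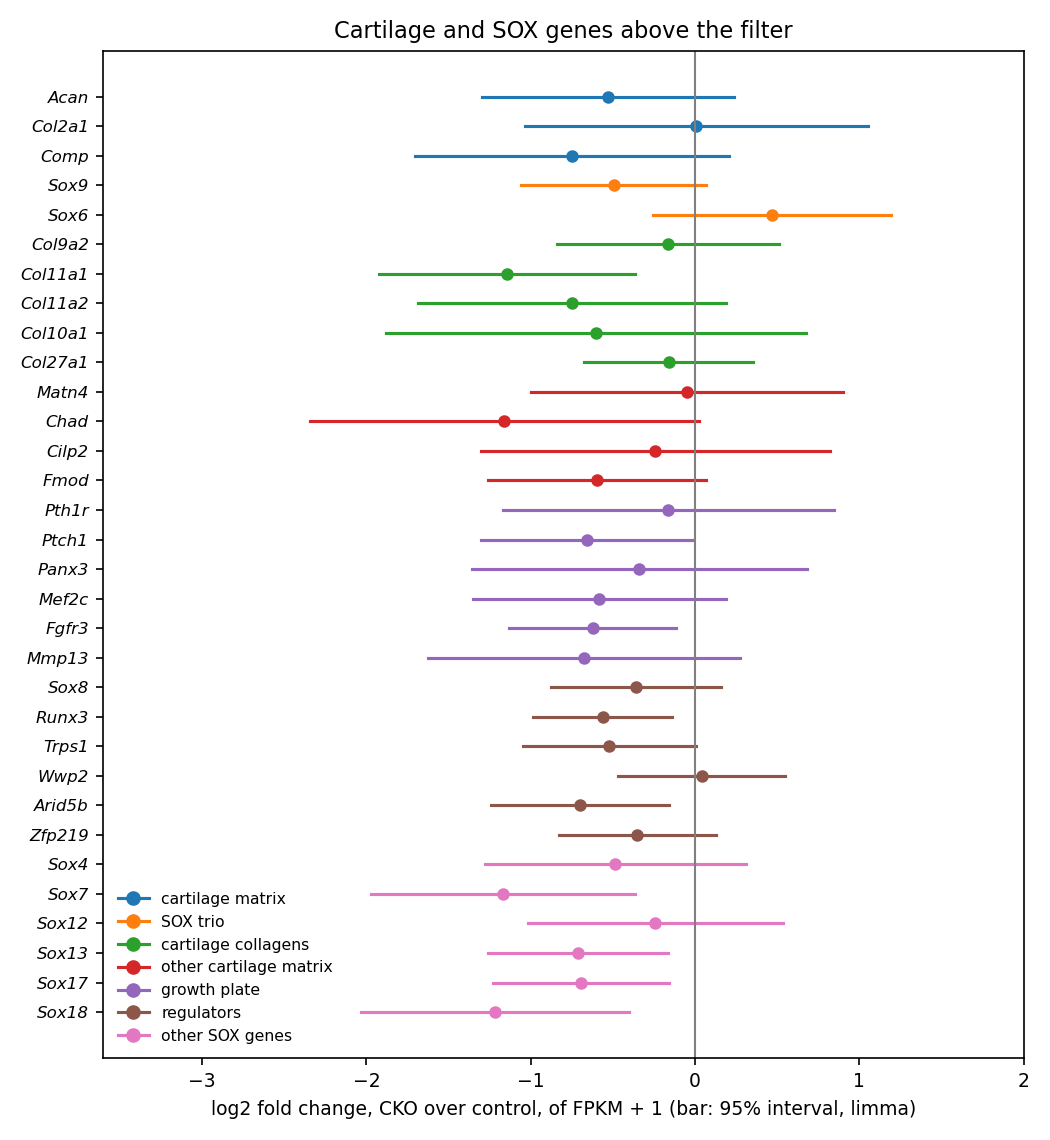
Log2 fold change of FPKM + 1, CKO over control, with its 95% interval from limma, for members and listed cartilage and SOX genes above the filter (n = 4 against 4). No gene shown passed the adjusted threshold of 0.05. Acan, Comp and Sox9 are below 0 and Sox6 above 0, also under the 3 rescalings tried. With a covariate Comp (Y-linked, marrow), Sox9 (Y-linked) and Sox6 (marrow) cross 0 and Acan does not, and Col2a1 is at 0.0072 and below 0 under 2 of the rescalings. The marrow level does not overlap between the groups.

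Several of these genes were low in single CKO libraries. CKO replicates 3 and 4 were the lowest 2 libraries for 3 of the 7 members, Acan, Hapln1 and Sox5, and for 10 of 26 other cartilage genes with a row, against 19.6% of all tested genes. The 10 included Col9a1, Col9a2, Col10a1 and Col11a1. Hapln1, Sox5 and Col9a1 were below the filter and so are not among the tested genes behind the 19.6%. Of the tested members only Acan had this pattern. CKO replicate 3 was the lowest library for 5 of 7 members, against 19.6% of all tested genes, and CKO replicate 4 for 1 of 7, against 38.8%. This pattern was noted after the values were seen and has no test. The same 2 libraries had the highest FPKM sums, at 598419 and 573858, and the part of that in the pattern was not tested.

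**Figure D4:**
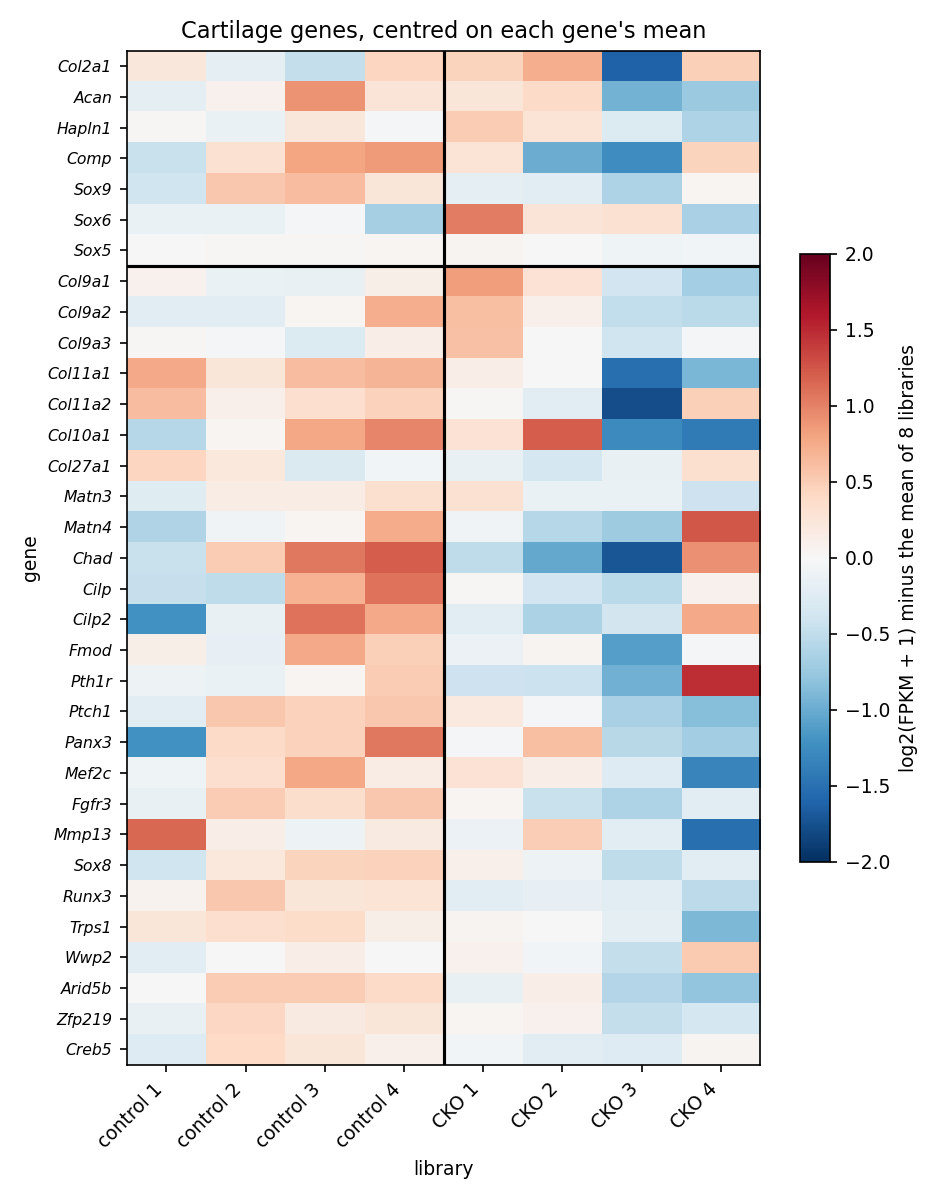
Log2(FPKM + 1) of the 7 members (above the line) and of 26 other cartilage genes in each library, minus the gene's mean over the 8 libraries (red above, blue below). CKO replicates 3 and 4 are the lowest for Acan, Hapln1 and Sox5, while in CKO replicate 4 Col2a1 is at 54.1 FPKM.

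Type XI collagen is part of the type II collagen fibril, and type I collagen is the main collagen of bone, so ratios of their genes to Col2a1 within a library were compared. A ratio within a library does not depend on how the library was scaled. Col1a1 had 239, 437, 630 and 362 times the FPKM of Col2a1 in control replicates 1 to 4 and 97.0, 75.7, 160 and 214 times in CKO replicates 1 to 4. Col11a1 had 5.14, 4.84, 7.65 and 4.23 times the FPKM of Col2a1 in the controls and 2.85, 2.13, 4.04 and 1.35 times in CKO. Both ratios were lower in every CKO library than in any control.

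The ratio of Col11a2 to Col2a1 was 8.79, 8.20, 11.9 and 6.86 in control replicates 1 to 4 and 5.01, 3.45, 6.35 and 6.68 in CKO replicates 1 to 4. Here the gap between the groups was narrow, from 6.68 to 6.86. Across all other 12747 tested genes, the difference in log2(FPKM + 1) between Col2a1 and the gene was higher in every CKO library than in any control for 10 genes, or 0.0784%. These were the collagens Col1a1, Col1a2, Col11a1 and Col11a2, and Adgrd1, Car12, Dlx3, Gprc5c, Lrp4 and Sp6. It was lower in every CKO library for 143 genes, or 1.12%. The ratios were chosen after the values were seen and carry no p. They describe these libraries only, and whether the 2 genes of a ratio changed unequally between the genotypes was not tested. A ratio also does not tell which of its 2 genes differed.

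**Figure D5:**
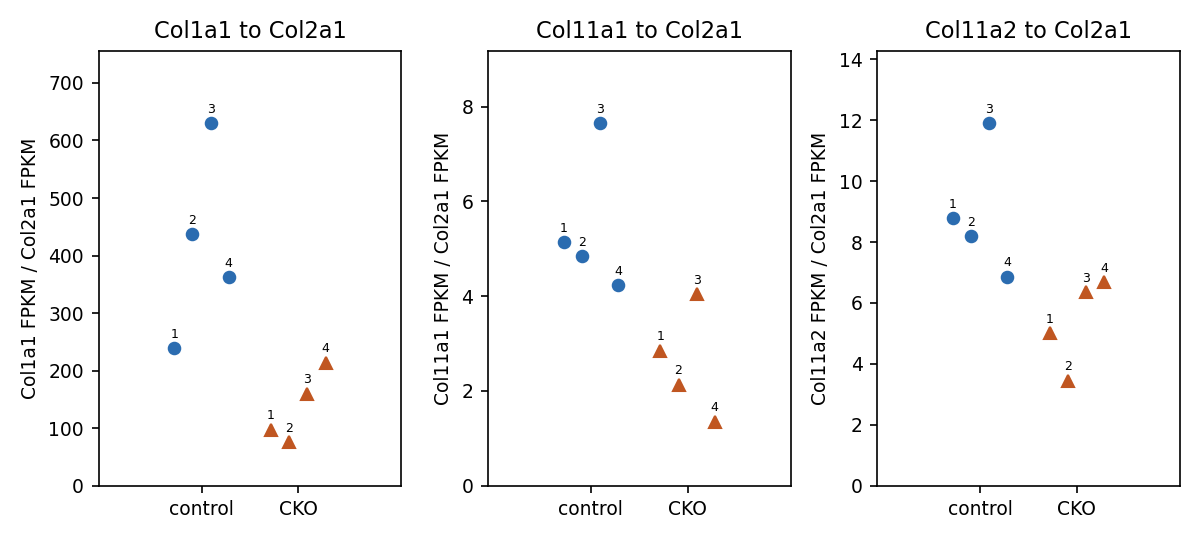
Ratio of the FPKM of Col1a1, Col11a1 and Col11a2 to that of Col2a1 in each library (circles control, triangles CKO, numbers are replicates, axes start at 0). All 4 CKO libraries lie below all 4 controls in each panel, with the smallest gap for Col11a2, from 6.68 to 6.86.

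Profiles most like those of the members were looked for among tested genes, by the root mean square difference in log2(FPKM + 1) over the 8 libraries after centring each gene. The nearest to Acan were Robo2, a guidance receptor gene (difference 0.183), Sorcs2 (0.186), a sorting receptor gene, and Col24a1 (0.195), a fibrillar collagen gene. The standard deviation of Acan itself over the libraries was 0.606 on this scale. For Col2a1, which had a standard deviation of 0.764, the nearest were Smtnl2 (0.259), Acta2 (0.323), the smooth muscle actin gene, and Rubcnl (0.358). Acta2 had 4.89 FPKM in CKO replicate 3 and 9.18 to 25.7 FPKM elsewhere.

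For Comp, with a standard deviation of 0.795, the nearest profiles were Hapln4 (0.243), a link protein gene related to Hapln1, Chpf (0.284), a subunit of the enzyme that extends chondroitin chains, and Adamts17 (0.285), a matrix protease gene. For Sox9, with 0.437, they were Fam160a1 (0.117), Ptk2 (0.122), which encodes focal adhesion kinase, and Rcbtb1 (0.122). Hapln1, with 0.351, was nearest to Zfp873 (0.111), Zfp874a (0.122) and Cd9 (0.125). Zfp873 and Zfp874a belong to a large zinc finger family whose members can share reads, so their values are uncertain.

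Markers of other cell types that a dissected shaft can hold also differed between libraries. Of 6 tendon genes tested 0 passed, with a median log2 fold change of -0.54, and the tendon list summed to 58.4 to 104 FPKM in control and 30.5 to 64.0 FPKM in CKO. Its named genes, Fmod and Egr1, averaged 40.0 and 17.9 FPKM in control and 26.6 and 8.70 FPKM in CKO, and neither is specific to tendon. Fmod and Thbs4 of the tendon list were also counted in lists above. The tendon factor Scx averaged 6.91 and 8.49 FPKM, and the tendon membrane protein gene Tnmd 5.07 and 4.60 FPKM, with a log2 fold change of 0.13 for each, above 0 for Tnmd although its mean FPKM was lower in CKO. Of 4 Schwann cell genes tested 0 passed, with a median of 0.58, and the averages in control and CKO were 31.4 and 24.1 FPKM for Pmp22 and 8.89 and 18.7 FPKM for S100b. S100b is also made by chondrocytes.

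Skeletal muscle genes varied most, with a sum of 41.8 to 2416 FPKM in control and 111 to 6940 FPKM in CKO. Of 9 tested 0 passed, with a median of 1.60, and Acta1 averaged 427 and 1184 FPKM and Mylpf 157 and 485 FPKM. Of 10 osteoblast genes tested 0 passed, with a median of -0.64, and the list summed to between 30629 and 38544 FPKM in control and between 6868 and 38747 FPKM in CKO. Col1a1 of this list was also counted among the relatives of the matrix genes. Of 11 erythroid genes 3 rose, Rhd, Hba-a1 and Alas2 (limma adjusted p = 0.0408, 0.0467 and 0.0467), with a list median of 0.87. Of 9 neutrophil genes 3 rose, Camp, S100a9 and S100a8 (limma adjusted p = 0.0388, 0.0437 and 0.0474), with a median of 1.28. Of 8 B lineage genes 0 passed, with a median of 1.02, and the means in control and CKO were 31.0 and 77.9 FPKM for Igll1 and 37.4 and 69.2 FPKM for Cd79b. Under quantile normalization, median-of-ratios scaling and equal FPKM totals 0 genes of the erythroid, neutrophil and B lineage lists passed. With library weights 10 of 11 erythroid, 4 of 9 neutrophil, 8 of 8 B lineage and 3 of 9 muscle genes passed as higher, against 32.2% of all tested genes. In the same fit 4 of 6 tendon and 4 of 10 osteoblast genes passed as lower, and 1 of 4 Schwann cell genes passed in each direction. Hba-a1 has a near-identical copy and its own level is uncertain. The part of these cell types in the values of the 7 genes was not tested beyond the covariates given above.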

How the data were processed

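Bulk RNA sequencing libraries of femoral shafts (4 control, 4 CKO) were grouped by the genotype in the labels. The submitters' processing notes name CASAVA 1.8, fastp, HISAT2 2.0.5, featureCounts 1.5.0-p3, DESeq2 1.20.0 and GRCm38. For annotation, strandedness and the filter behind the 14457 rows, the sources used here give nothing. The deposited table gave FPKM per library, with a log2 fold change and a p-value per gene from the authors' own comparison, per the file headers. Depth is unknown, because whole reads could not be recovered from the FPKM. The 12748 genes that reached 1 FPKM in 4 or more libraries were tested on log2(FPKM + 1) with limma 3.58.1 in R 4.3.3 (empirical Bayes with trend), adjusted by Benjamini-Hochberg over all of them and called at 0.05, after the fit was tested on simulated data. Slc26a2 had an exact permutation test. Coordinates and sequences came from GENCODE M21.

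Members were chosen by symbol and not by their values, but earlier results of these data were known when members and lists were chosen. The text names the members, Slc26a2, up to 3 called genes of lowest adjusted p in each list (otherwise the 2 with the highest mean), and the 3 most alike profiles of 5 members. Other listed genes were named after their values were seen. Some results are not reported here. Alternatives were other pseudocounts, filters and scalings, covariates, library weights, a replicate block, removal of a length trend, and leaving out libraries.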

Additional observations from a re-analysis of the deposited data

Results flagged for a closer look

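In 8 of 102 groups of 4 libraries examined, 1 library lay far from the other 3, where chance gives about 1 in 20. None of the 8 concerns a cartilage matrix or SOX trio gene. Slc26a2 was at 7.49 FPKM in control replicate 2 and at 4.37 to 4.85 in the other controls. Mmp13 was at 731 FPKM in control replicate 1, against 304 to 370. Pth1r was at 215 FPKM in CKO replicate 4, against 38.5 to 57.2 in the other CKO libraries. Timp3 was at 38.4 FPKM in control replicate 1, against 33.1 to 34.0. Egr1 was at 17.1 FPKM in CKO replicate 2, against 4.73 to 6.50. Pmp22 was at 42.8 FPKM in control replicate 3, against 26.3 to 28.7. Col24a1 was at 20.8 FPKM in control replicate 3, against 13.2 to 14.3. Fam160a1 was at 2.61 FPKM in control replicate 1, against 5.26 to 5.40.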

How the results depend on the processing

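The count of 0 members called held in every alternative run except library weights, which called 3. The count of 0 members at an unadjusted limma p under 0.05 was less stable. It was 4 with library weights, 3 without CKO replicate 4, and 2 with equal FPKM totals or without control replicate 1. It was 1 with the length trend removed or without CKO replicates 3 and 4, and 0 in the other runs. The count of genes called also varied. It was 578 as reported, 381 with no filter, 321 after quantile normalization (119 higher and 202 lower, against 495 and 83 as reported), 274 with the replicate block and 6005 with library weights. It was 0 with median-of-ratios scaling, equal FPKM totals, the Y-linked covariate, the marrow covariate, the length trend removed, or without CKO replicates 3 and 4 (chosen after seeing the data), where limma gave 3397, 3934, 2202, 1888, 2089 and 3642 genes at an unadjusted p under 0.05. Leaving out 1 library gave 0 to 1885 genes, 815 without control replicate 1, 1885 without CKO replicate 4 and 0 for each of the other 6. The cause of these shifts was not tested. Equal totals moved the median of all genes to -0.37, and library weights to 0.13.

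The log2 fold change of Col2a1 was -0.0018 and -0.0028 with pseudocounts of 0.1 and 0.01, -0.31 after quantile normalization and -0.45 with equal totals, and -0.23 to 0.55 without 1 library. Comp was at 0.020 with the Y-linked and 0.16 with the marrow covariate, Sox9 at 0.0011 with the Y-linked covariate, Sox6 at -0.048 with the marrow covariate, and Acan at 0.047 without CKO replicates 3 and 4. Without 1 library Acan ranged from -0.74 to -0.30, Comp from -1.02 to -0.46, Sox9 from -0.71 to -0.37 and Sox6 from 0.21 to 0.76. The difference in Slc26a2 ranged from -4.18 to -3.05 FPKM around -3.75. Whether replicate numbers pair the samples was not settled. Correlations of same-numbered libraries were -0.0339, 0.229, -0.255 and 0.426 for replicates 1 to 4. The highest correlations with a library of another number were 0.453, 0.126, 0.192 and -0.126. The same number thus gave the higher value for replicates 2 and 4 and the lower for replicates 1 and 3. The block called 0 members, as did the fit without it. Unknown depth limits Hapln1 and Sox5 most.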
